A study of Rattus norvegicus with 21 samples.

Results

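The genes of the cytosolic ribosome were examined in rat liver across early weaning, age and leucine feeding. They were taken as every protein-coding row whose symbol has the form used for a ribosomal protein of the large (Rpl) or small (Rps) subunit or of the stalk (Rplp), Rpl12 left aside. This gave 92 of the 32623 rows of each table, under 83 symbols: 52 rows of the large subunit, 36 of the small and 4 of the stalk. Of the 92, 88 reached an FPKM (fragments scaled by transcript length and by library depth) of at least 1 in 3 or more of the Wistar libraries, and 89 did so in the Sprague Dawley libraries. Those 88 and 89 are the members described here, and all of them entered the test.

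The series held 21 liver RNA-seq libraries, 3 in each of 7 groups. In Wistar rats, control and early weaned livers were taken at 23 days of age (d23) and at 63 days (d63). In Sprague Dawley rats, control livers, early weaned livers and livers of early weaned rats given 1.5% leucine in the drinking water were taken at 211 days (d211). Early weaning removes pups from the mother's milk before the usual age; the labels do not give the day, and they do not say whether each library is a separate animal, so p-values measure the spread between libraries. Strain, the oldest age and the deposited table were the same split, so Wistar and Sprague Dawley values were never tested against each other. Total counts ran from 52054644 to 75118153 per library, and the hepatocyte markers of the tissue (albumin, transthyretin and 9 others) were present in all groups.

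A ribosome holds a large and a small subunit, each built from ribosomal RNA and a set of proteins that are needed in equal numbers. Their mRNAs are among the most abundant of a cell, and most begin with a C followed by a run of pyrimidines, the terminal oligopyrimidine (TOP) tract. Through this tract, translation of the mRNA is raised when amino acids, leucine among them, activate the kinase complex mTORC1. That control acts on translation and is not measured by the level of the mRNA. Growing tissue makes many ribosomes, and the transcription factor MYC is known to drive their assembly genes.

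The annotated start sites show which members carry the tract in the reference. RefSeq promoters of the GRCr8 build matched 62 of the 83 symbols, with 63 entries. A C at the annotated start followed by at least 4 pyrimidines (C or T), on the gene's own strand, stood at 21 of the 63, or 33.3%, against 2.63% of all 33469 promoters of the table. With the C allowed within 5 bases on either side of the annotated start, the shares were 58.7% and 17% of promoters. The sequences below are those of 9 members whose values are described later, from 10 bases before the start to the 15th base of the transcript, with the tract that begins at the start in capitals. They lie at chrX:157205840-157205864 (plus strand) for Rpl10, chr8:71290858-71290882 (minus) for Rplp1, chr12:46718376-46718400 (minus) for Rplp0, chr20:4933735-4933759 (plus) for Rps18, chr3:43165907-43165931 (minus) for Rpl35, chr5:106420526-106420550 (minus) for Rps6, chr7:113507976-113508000 (minus) for Rpl3, chr2:113683186-113683210 (plus) for Rpl22l1 and chr8:76443648-76443672 (plus) for Rps27l.
Rpl10: gtgggagcgtCTCTTTTCCTCTggc
Rplp1: cgcatgtgatCCTTTCCTCagctgc
Rplp0: caccgcacttCTCTCgccaggcgtc
Rps18: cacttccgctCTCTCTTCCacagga
Rpl35: cttcctctttCTCTCgaaccgggcg
Rps6: ctcctaggcggtcggctgtgtcaag
Rpl3: gcctgctcgatctctatcggcggcg
Rpl22l1: gtggatatccggttccgagttgcgc
Rps27l: ttcatttgtcattatttgtggtgtc
Rpl10, with 12 bases, and Rplp1 and Rps18, with 9 each, carried the longest tracts of the 9. The last 4 hold no such tract at the annotated start or within 5 bases of it. The start is the annotated one, and no match says only that these letters are not in this window.

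Levels of the members spanned more than 2 orders of magnitude per length, although the proteins are used in equal numbers. In the Wistar table the mean FPKM over 12 libraries ran from 4.35 to 826, with a median of 154 FPKM. Rpl41, the shortest ribosomal protein, led at 826 FPKM (523 to 1154 over libraries), followed by the stalk protein gene Rplp1 at 546 and Rpl35 at 526. The lowest were the copies Rpl10l at 10.3 FPKM, Rps10l1 at 5.32 and a row of Rpl21 (ENSRNOG00000049848) at 4.35. In the Sprague Dawley table Rpl41 (770 FPKM), Rpl35 (623) and Rpl10 (621) led, and Rpl39l came last at 0.665 FPKM, reaching 1 in 3 of its libraries. Outside the level rule stood Rpl30l1, with 0.417 and 0.346 FPKM, Rpl3l, a heart and skeletal muscle form of Rpl3, with 0.0367 and 0.0179, Rplp0l1, which was listed at 0 in every library, and, in the Wistar table, Rpl39l with 0.421.

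The gene models differed among members as well. A count and an FPKM together imply the transcript length used, and 9 members had an implied length over 1500 bp, among them Rpl7 and Rpl11. In the Wistar table those 9 stood between 50.2 and 115 FPKM. A further 19 of the 92 rows had an implied length that filled the whole span of the gene, that is, no intron, as processed copies have. Of 17 rows on another chromosome than the RefSeq gene of the same symbol, 15 were of this kind, and 7 symbols (Rpl9, Rpl35a, Rpl37, Rpl38, Rpl39, Rps13 and Rps29) were present only as such a row. The 18 described rows without an intron had a median of 30.2 FPKM in the Wistar table, against 208 for the 70 rows with introns, and their coefficient of variation within a group (SD over mean) had a median of 19.8%, against 12.6%. Near-identical copies may share reads, which makes the value of a single such row uncertain.

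Values of 2 rows under 1 symbol varied more than their sum in some cases. Both rows named Rps19l2 are an example; RefSeq uses that name for a gene of its own, on a chromosome where neither row lies, and as a synonym of Rps19, so which gene they measure is not settled here. In early weaned livers at d211 the row ENSRNOG00000037897 read 348, 142 and 270 FPKM and the row ENSRNOG00000048199 read 110, 223 and 245.4, high where the other was low in 2 of 3 libraries. Within groups of the Sprague Dawley table the rows varied by a median of 36.1% and 37.7%, and their sum by 16.1%. Both rows of Rps27a, which encodes a ubiquitin fused to a ribosomal protein, varied by 23.5% and 27.4% and their sum by 11.4%.

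As a group, the ribosomal protein genes made up a smaller part of the liver transcriptome at d63 than at d23. Their summed count was 1.42%, 1.40% and 1.53% of the library in d23 controls and 1.69%, 1.41% and 1.25% in d23 early weaned livers. At d63 it was 0.961%, 1.24% and 1.07% in controls and 1.14%, 0.943% and 0.953% in early weaned livers. All 6 libraries of d23 thus stood above all 6 of d63, although the closest pair, 1.25% and 1.24%, nearly met. The means were 1.45% ± 0.0665 and 1.09% ± 0.140 (SD, n = 3) in controls and 1.45% ± 0.223 and 1.01% ± 0.110 in early weaned livers. In bulk tissue, fewer cells of a type and less RNA per cell cannot be told apart.

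**Figure D1:**
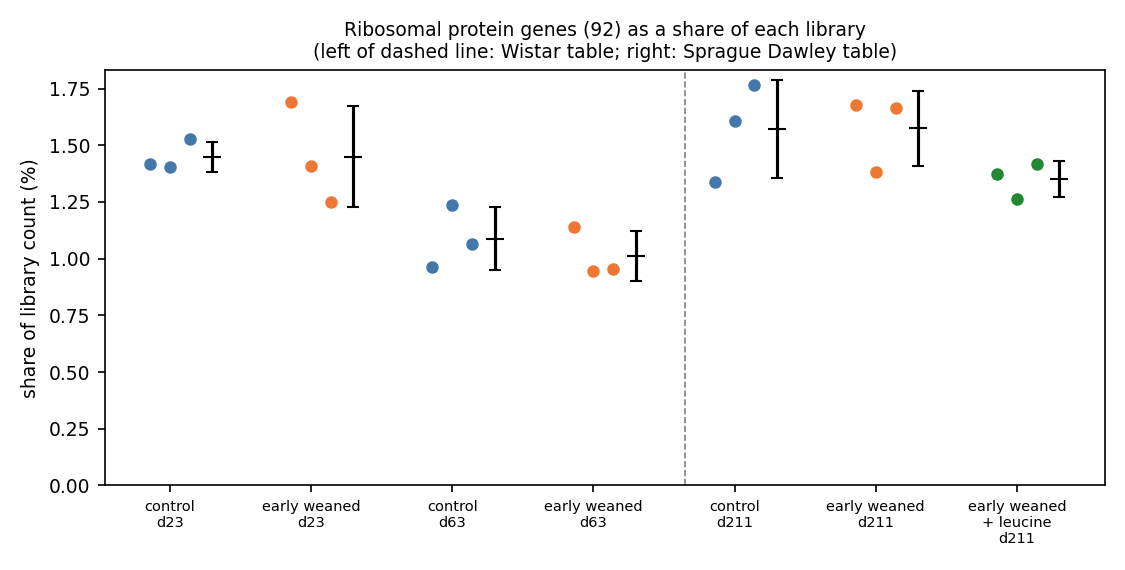
Summed count of the 92 ribosomal protein rows as a percent of each library's total count (y axis) in the 7 groups (x axis); points are libraries, and the bar beside them is the mean with its SD (n = 3). The 6 libraries of d63 lie between 0.943% and 1.24%, below the 6 of d23, and the Sprague Dawley groups right of the dashed line come from another table.

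The change from d23 to d63 in control livers shows which of these genes take part in that decline. Of the 88 described members, 83 were lower at d63 and 16 of them fell, while 0 rose (edgeR quasi-likelihood test, Benjamini-Hochberg adjusted p under 0.05). That is 18.2% of the members, against 9.61% of all 15416 genes tested that fell and 7.97% that rose. The median log2 change was -0.43 for the members and -0.04 for all genes. It was alike in the 49 large-subunit members (-0.44) and the 36 small-subunit members (-0.41), and the stalk genes Rplp0, Rplp1 and Rplp2 had a median of -0.56. The DESeq2 test called 36 members, but the share of all genes is given here for the main fit only. The counts of this and the following alternatives cannot be set against such a share. A fit of only the control groups called 0, and the count was 1 without control d23 replicate 1, 3 without control d23 replicate 2, 1 without control d63 replicate 1 and 0 without control d63 replicate 3. None of the 16 passed in all 6 fits that left out a library, whereas the median stayed between -0.43 and -0.39 under the scalings tried and between -0.52 and -0.35 over all alternatives.

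Rps6, Rpl3 and Rps23 show the decline library by library; they passed in 2, 3 and 2 of the 6 fits that left out a library. Rps6, the small-subunit protein that mTORC1 signalling phosphorylates through S6 kinase, read 223, 203 and 215 FPKM in d23 controls and 116, 161 and 138 in d63 controls. The groups did not overlap, and Rps6 fell by 0.63 in log2 units (adjusted p = 0.026 in edgeR, SE 0.16). Rpl3, which lies close to the peptidyl transferase centre of the large subunit, went from 117, 111 and 106 FPKM to 55.4, 72.5 and 56.9, and fell by 0.85 (adjusted p = 0.0123). Every d63 library of Rpl3 stood below every d23 library. Rps23, near the decoding site of the small subunit, went from 489, 528 and 444 FPKM to 253, 323 and 294 and fell by 0.74 (adjusted p = 0.0189).

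The largest called fall in controls was that of Rpl22l1, a paralog of the large-subunit gene Rpl22. It read 27, 30 and 19.1 FPKM at d23 and 9.97, 13.3 and 9.4 at d63, and fell by 1.21 in log2 units (adjusted p = 0.012, SE 0.244). The highest d63 library remained below the lowest d23 library. Among the other members that fell were Rpl9, Rpl13, Rpl23a, Rpl32 (ENSRNOG00000010746), Rpl35, Rps3a, Rps9, Rps10 (ENSRNOG00000000490), Rps18, Rps20 and Rplp2, by 0.48 to 0.78.

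Early weaned livers went through the same ages, with group means from other libraries than those of the control comparison. Both comparisons come from 1 fit with a shared estimate of the spread, so their calls are not independent. Of the 88 members 83 were lower at d63, 26 fell and 1 rose, so that 29.5% fell, against 13.5% of all genes tested; 13.5% of all genes rose. The median log2 change was -0.41, against -0.02 for all genes. Of the members that fell, 12 did so in both comparisons, which is 75% of the 16 of the controls and 46.2% of the 26 of the early weaned livers. Over all genes tested, 1082 fell in both, or 73.1% of the 1481 that fell in controls and 52.1% of the 2076 that fell in early weaned livers, so the members' shares stood near the background. Scaling by total counts called 42 members and limma on log2(FPKM + 1) called 54. No share of all genes is given for these or the left-out fits, so their counts cannot be set against it. Leaving out a library gave 6 (without early weaned d23 replicate 1), 9 (d23 replicate 2), 4 (early weaned d63 replicate 2) and 7 (d63 replicate 3). Rps6, Rps12, Rpl10l and Rpl32 (ENSRNOG00000010746) passed in all 6 such fits.

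Rps6 had the smallest adjusted p among the members here. It read 250, 226 and 210 FPKM in d23 and 142, 108 and 110 in d63 early weaned livers, and fell by 0.81 in log2 units (adjusted p = 0.00713, SE 0.161). Rps12, a small-subunit protein, fell by 1.12 (adjusted p = 0.00924), from 245.1, 206 and 146 FPKM to 89.9, 83.4 and 80.2. The stalk gene Rplp1, whose protein helps recruit the translational GTPases, went from 730, 685 and 612 FPKM to 412, 347 and 332 and fell by 0.78 (adjusted p = 0.0124). In all 3 genes the d63 values lay below every d23 value.

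Whether a member had the tract at its annotated start was then set beside these medians. Among 54 members with introns on the chromosome of their RefSeq gene, the 17 with a tract had a median log2 change of -0.42 in controls and -0.46 in early weaned livers. The 37 without one had -0.45 and -0.40. The difference was not tested. Some of the 37, among them Rpl4, Rpl13 and Rps23, carry a tract within 5 bases of the annotated start. The 2 classes thus do not cleanly part members with a tract from those without.

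Some members did not follow. Rps27l, a paralog of the small-subunit gene Rps27 that is known as a p53 target, rose in early weaned livers by 0.75 in log2 units (adjusted p = 0.0305, SE 0.222), from 42.2, 30.9 and 24.9 FPKM at d23 to 53.4, 54.5 and 44 at d63. In controls it read 35.2, 39.3 and 46.2 FPKM at d23 and 63, 44 and 68.3 at d63, a difference of 0.54 that did not pass (adjusted p = 0.107). Its level relative to Rps27 in the same library was 6.13%, 5.92% and 4.97% in d23 early weaned livers and 10.5%, 13.5% and 10.7% at d63, without overlap. In controls it was 6.59%, 7.15% and 9.63% at d23 and 16.4%, 9.01% and 15.2% at d63, where 1 d63 library lay inside the d23 range. Of 12 processing alternatives and 6 left-out libraries, 12 kept the call in early weaned livers. Only 2 of the 6 fits that left out a library kept it. Over all these alternatives adjusted p ran from 0.00698 to 0.0946.

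Rpl10, which sits where the subunits meet and is needed for the last step of large-subunit maturation, stayed level with a tract as long as any shown above. It read 398, 463 and 441 FPKM in d23 controls and 427, 497 and 496 at d63. In early weaned livers it read 580, 482 and 393 FPKM and then 477, 448 and 437. The log2 differences were 0.13 (SE 0.157) and 0.03 (SE 0.157), and neither passed. The ranges of the ages overlapped in both series of libraries, and the early weaned difference ran from -0.12 to 0.17 over the alternatives.

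**Figure D2:**
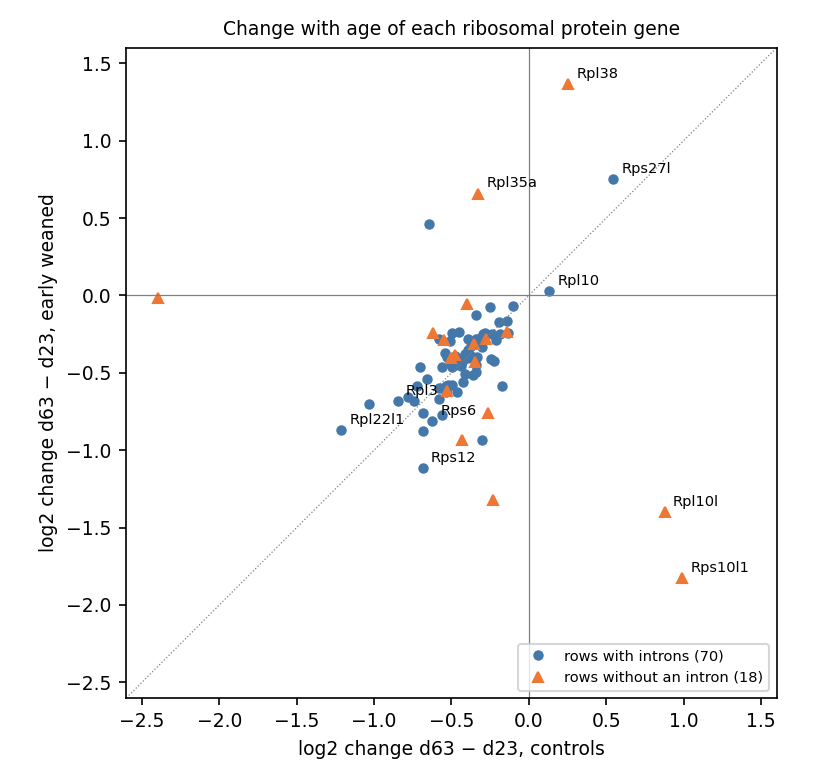
Log2 change from d23 to d63 in control livers (x axis) and in early weaned livers (y axis) for the 88 described members; circles are rows with introns, triangles rows without an intron, and the dotted line marks equal change. Most members lie below 0 on both axes, 81 of 88 being lower at d63 in both, and Rps27l, Rpl10 and Rpl38 lie above 0 on both axes.

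The changes of rows with introns were more alike between both sets of libraries than those of all rows. Across the 70 members with introns, Pearson's r between both age changes was 0.67, and across all 88 it was 0.02. These are correlations across genes, which share libraries and reads and are not replicates. The 7 members furthest from equal change were Rps10l1, the row ENSRNOG00000049848 of Rpl21, Rpl10l, Rpl38, Rpl30, the row ENSRNOG00000032605 of Rpl32 and Rpl35a, all but Rpl30 without an intron.

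The genes that build ribosomes had larger median falls than the genes of the ribosome itself; that difference was not tested. Of 37 ribosome assembly factors tested, 24 fell in controls and 26 in early weaned livers, with median log2 changes of -1.14 and -1.09 and 0 that rose. Their summed level was 1155, 1179 and 509.7 FPKM in d23 controls and 469.5, 493.2 and 516 FPKM in d63 controls, so that control d23 replicate 3 stood apart, inside the d63 range. Without it 33 of 37 fell (median -1.50), without control d23 replicate 1 or 2 or control d63 replicate 3 there were 0, without control d63 replicate 1 there was 1 and without control d63 replicate 2 there were 3. In early weaned livers the sums of 1083, 930.4 and 853.9 FPKM at d23 lay above 490.8, 445.8 and 461.9 FPKM at d63, and 5 to 19 fell when a library was left out, fewest without early weaned d63 replicate 2. The medians stayed at or below -0.92 in all these fits. Mybbp1a, a nucleolar protein, fell by 1.68 in controls (adjusted p = 0.0151), from 30 ± 16.1 FPKM to 9.37 ± 1.04 (SD, n = 3). Nob1, the nuclease that finishes the small subunit's RNA, fell by 1.29 (adjusted p = 0.0153) and, in early weaned livers, by 1.41 (adjusted p = 0.0072). Of 14 subunits and factors of RNA polymerase I, which transcribes ribosomal RNA, 6 and 7 fell, among them Polr1e by 1.57 and 1.74. Control d23 replicate 3 stood apart there too, with 64.6 FPKM against 143.7 and 152 FPKM in the other d23 controls and 63.3 to 72.1 FPKM in d63 controls; 12 fell without it, 0 to 1 without another control library, and 0 to 3 without an early weaned library. Myc fell by 4.90 (adjusted p = 0.00876), from 71.8 ± 58.2 FPKM to 2.39 ± 0.503, and by 5.41 in early weaned livers (adjusted p = 0.00417). Its SD in d23 controls was close to its mean, and its part in the falls of these lists was not tested.

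Translation factors and mitochondrial ribosomal proteins had smaller medians than the assembly factors. Of 24 initiation and termination factors, 6 fell in controls and 11 in early weaned livers (medians -0.59 and -0.55), Eif1ax by 0.99 and 1.17; 18 fell without control d23 replicate 3, 1 to 2 without another control library, and 2 to 8 without an early weaned library. Of 18 translation factors and related genes whose mRNAs carry the tract, 2 and 3 fell (medians -0.16 and -0.21), Hnrnpa1 by 1.12 and 1.15. Of 74 mitochondrial ribosomal proteins, 14 fell and 0 rose in controls and 8 fell and 5 rose in early weaned livers. Their median was -0.08 in controls and 0.12 in early weaned livers, where it turned to -0.00402 with total counts. Under the other scalings tried, the medians of the assembly, polymerase and factor lists kept their sign. Small subunits of the respiratory chain, whose short mRNAs resemble those of ribosomal proteins in length and abundance, had 9 and 5 of 31 that fell. That share was above the members' in controls and below it in early weaned livers. The sums of these subunits were 5041 to 6593 FPKM at d23 and 3893 to 4505 FPKM at d63 in controls. Early weaned livers had 5246 to 6639 and 4300 to 4765 FPKM. Mitochondrial transcripts summed to 115632 to 127692 and 90756 to 98379 FPKM in controls. Early weaned sums were 111683 to 132015 and 92840 to 102209 FPKM. A shift shared by abundant mRNAs was not tested.

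**Figure D3:**
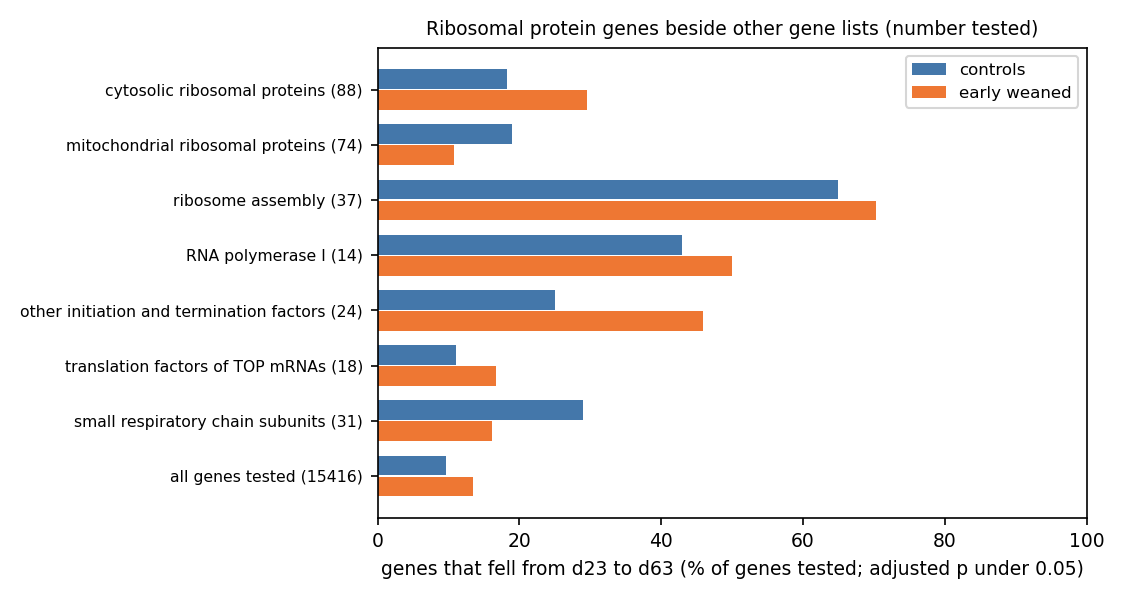
Percent of the tested genes of each list that fell from d23 to d63 (x axis, from 0; adjusted p under 0.05, edgeR) in controls and early weaned livers, with the number of genes tested in brackets. The cytosolic ribosomal proteins stand at 18.2% and 29.5%, above all genes tested (9.61% and 13.5%). In both comparisons they stand below the ribosome assembly factors, RNA polymerase I and the initiation and termination factors. In controls they also stand below the small respiratory chain subunits and close to the mitochondrial ribosomal proteins.

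Markers of other liver cells also moved between these ages. Of 13 lymphocyte markers 5 rose in both comparisons, and their summed level went from 11.6 to 13.4 FPKM in d23 controls to 19.0 to 31.7 FPKM at d63, and from 11.3 to 11.98 FPKM to 13.4 to 16.6 FPKM in early weaned livers, where Cd2 and Ms4a1 were at 0 at d23. Of 8 stellate cell markers 2 fell in both and 1 rose in early weaned livers, their sum going from 156 to 183 FPKM to 72.8 to 91.8 FPKM in controls and from 118 to 129 FPKM to 63.4 to 75.7 FPKM in early weaned livers. Of 9 endothelial markers 2 and 5 fell, with sums of 126 to 139 and 81.3 to 124 FPKM in controls and of 121 to 154 and 61.9 to 90.8 FPKM in early weaned livers; no marker of these 2 lists was at 0 throughout a group. Of 11 hepatocyte markers 6 rose and 1 fell in early weaned livers, where their sum went from 56825 to 67069 FPKM at d23 to 84880 to 92779 FPKM at d63, without overlap. In controls 3 rose and 1 fell, with sums of 75744 to 121216 and 85254 to 86649 FPKM. Of 7 erythroid markers tested 0 passed, while their sum went from 3740 to 5106 FPKM to 899.8 to 3615 FPKM in early weaned livers and from 5027 to 7120 FPKM to 643.4 to 8500 FPKM in controls. Summed Kupffer cell markers went from 449.5 to 559.8 FPKM to 296.5 to 405.25 FPKM in early weaned livers, without overlap. In controls they ran from 418.3 to 641.35 and from 369.7 to 706.6 FPKM. The 18 cell cycle genes summed to 31.6 to 56.7 and 21.3 to 24.1 FPKM in controls. Early weaned livers had 28.97 to 31.95 and 20.5 to 22.2 FPKM, with Ccnb1 and Rrm2 at 0 at d23 and Rrm2 at d63. The part of all these lists in the decline was not tested.

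Early weaning was then compared with control at d23. Of the ribosomal protein genes 41 were higher and 47 lower, with a median log2 difference of -0.01, against -0.03 for all genes; over the alternatives it ran from -0.13 to 0.10. In the edgeR test 0 of 88 passed, as 0.013% of all genes tested did, and 1 had an unadjusted p under 0.05, against 6.2% of all genes. DESeq2 called 1, Rpl10l. Rps6 differed by 0.07 and Rpl3 by -0.17 in log2 units. The summed level of the 11 hepatocyte markers, none at 0, was 56825 to 67069 FPKM in these early weaned livers and 75744 to 121216 FPKM in the controls; its part here was not tested.

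At d63 the median log2 difference of early weaned against control livers was -0.02 (-0.12 to 0.09 over the alternatives), against -0.01 for all genes, and 0 of 88 members passed, as did 0% of all genes tested. DESeq2 also called 0. An unadjusted p under 0.05 was found for 3 members, all lower, against 6.05% of all genes. They were Rpl10l and 1 row each of Rpl32 (ENSRNOG00000032605) and Rpl7a (ENSRNOG00000049097). Rps6 read 142, 108 and 110 FPKM in early weaned and 116, 161 and 138 in control livers, overlapping ranges.

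The difference between the early weaning effects at both ages was tested as an interaction. For the members its median was 0.015 in log2 units (-0.13 to 0.13 over the alternatives), and 0 of 88 passed, against 0.00649% of all genes. The unadjusted p was under 0.05 for 4 members, against 4.72% of all genes, and all 4 were rows without an intron. DESeq2 called 1 member, again Rpl10l.

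Rpl10l, a copy of Rpl10 without introns that is known from the testis, had the smallest p in these comparisons. It read 8.98, 5.74 and 5.14 FPKM in control and 17.4, 12.4 and 19.9 in early weaned livers at d23. At d63 it read 15.3, 8.36 and 12.8 in control and 4.51, 6.37 and 6.26 in early weaned livers. The groups did not overlap at either age, and the order was opposite. The log2 differences were 1.28 (SE 0.301, adjusted p = 0.449) at d23 and -0.998 (SE 0.3, adjusted p = 0.679) at d63, and that of their difference was -2.28 (SE 0.425, adjusted p = 0.331), so none passed in edgeR; in DESeq2 the difference at d23 (adjusted p = 0.0166) and the interaction (adjusted p = 0.000715) did. Over the alternatives adjusted p ran from 0.0166 to 0.921 at d23, from 0.172 to 1 at d63 and from 0.000715 to 0.921 for the interaction. Its level was 1.17% to 2.26% of that of Rpl10 in d23 controls and 2.57% to 5.06% in d23 early weaned livers.

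**Figure D4:**
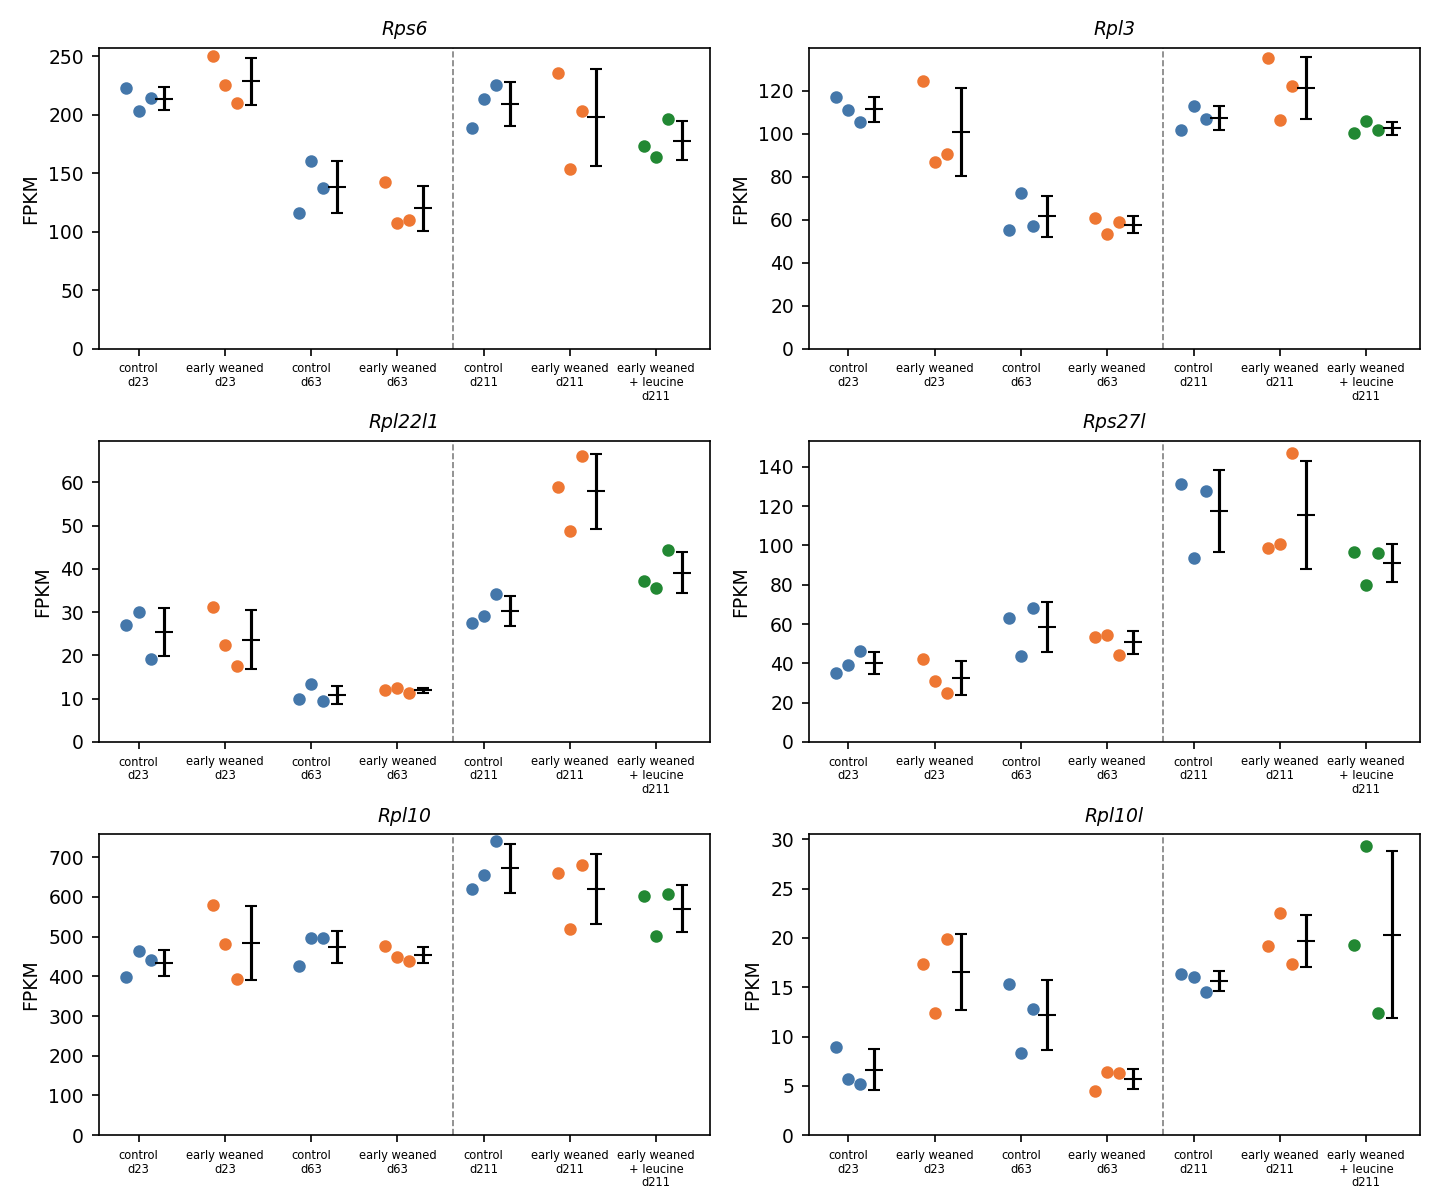
FPKM (y axis, from 0) of 6 members in each library of the 7 groups; points are libraries and bars the mean with its SD (n = 3), and the dashed line parts the Wistar from the Sprague Dawley table. Rps6, Rpl3 and Rpl22l1 are lower at d63 than at d23, Rps27l is higher on average, Rpl10 overlaps between ages, Rpl10l changes order between ages, and Rpl22l1 is higher in early weaned than in control livers at d211.

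At d211 early weaned and control Sprague Dawley livers were compared. The ribosomal protein genes took 1.34%, 1.61% and 1.77% of the count in controls and 1.68%, 1.38% and 1.66% in early weaned livers, overlapping ranges with means of 1.57% ± 0.216 and 1.57% ± 0.167. After TMM scaling, which sets the bulk of genes level between libraries, 79 of 89 members were lower in early weaned livers, with a median log2 difference of -0.21, against 0.02 for all genes, whereas with total counts the median was 0.01 and that of all genes 0.24. Relative to all genes the members' median was lower by every scaling tried, by 0.163 to 0.237, and by limma without a filter at 0.006 against 0.073. Other lists of abundant mRNAs stood lower as well: 31 of 31 small respiratory chain subunits (median -0.31, 16 at an unadjusted p under 0.05) and 13 of 13 mitochondrial transcripts (median -0.505) after TMM, and 25 and 13 of them with total counts. In edgeR 0 of 89 passed, against 0.719% of all genes, and 13 had an unadjusted p under 0.05, 12 of them lower, against 17.3% of all genes. DESeq2, total counts and limma on log2(FPKM + 1) each called 1, Rpl22l1.

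Rpl22l1 had the smallest p of the members at this age, although Rpl39l (1.59), Rps10l1 (1.19) and Rpl35a (0.78) had larger log2 differences. It read 27.4, 29.2 and 34.2 FPKM in control livers and 59, 48.8 and 66.1 in early weaned livers, so that every early weaned library stood above every control. The log2 difference was 0.72 after TMM (SE 0.151), with an adjusted p of 0.0651 that missed the threshold in edgeR. Over 18 alternatives the difference ran from 0.62 to 1.00 and adjusted p from 0.00171 (DESeq2) to 0.209 (without early weaned d211 replicate 1), and 6 passed; without early weaned d211 replicate 2 it was 0.0421. In the Wistar table the same gene differed by -0.13 at d23 and 0.21 at d63 between early weaned and control livers, and neither passed. Its partner Rpl22 was not analysed here.

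Differences of members at d211 ran from -0.61 to 1.59 in log2 units. Among rows with introns and lower values, the large-subunit genes Rpl18 (-0.41, SE 0.139), Rpl6 (-0.35, SE 0.139) and Rpl4 (-0.27, SE 0.108) had the smallest p, with adjusted p of 0.176, 0.234 and 0.242 in edgeR. Over the alternatives Rpl18 ran from -0.55 to -0.10, Rpl6 from -0.48 to -0.05 and Rpl4 from -0.32 to 0.03. Rps27 read 540, 666 and 799 FPKM in control and 582, 530 and 659 in early weaned livers, overlapping. Of 18 TOP-bearing translation factors 16 were lower after TMM and 14 with total counts, with 0 that fell, and of 37 ribosome assembly factors 29 and 20. Myc read 11.7 ± 5.27 FPKM in early weaned and 1.85 ± 0.718 in control livers, a log2 difference of 2.40 that missed the threshold (adjusted p = 0.0544). Of 6 cholangiocyte markers all were higher in early weaned livers and 0 passed, with sums of 16.1 to 30.6 against 8.26 to 13.5 FPKM and none at 0; the 7 erythroid markers tested were higher too, with sums of 1204 to 3132 against 695 to 1777 FPKM and Gata1 at 0 in both groups. Their part was not tested.

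Leucine in the drinking water was compared with plain water after early weaning. Libraries with leucine had 1.37%, 1.26% and 1.42% of their count in ribosomal protein genes, overlapping at 1.38% with the early weaned group. The median log2 difference of members was -0.07, against 0.00 for all genes, and 66 of 89 were lower. In edgeR 0 passed, against 0.36% of all genes, and 3 had an unadjusted p under 0.05, against 13.1% of all genes. DESeq2 called 1, Rpl39l. That low-level copy had counts of 88, 59 and 4 in early weaned libraries and 0 in all 3 with leucine, which allows up to 12 count units, or 3 fragments, in each. The d211 controls, without leucine, had counts of 0, 0 and 46, so it varied widely within groups.

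Rpl22l1 lay between both other groups in livers with leucine. It read 37.3, 35.6 and 44.5 FPKM, below all 3 early weaned libraries without leucine and above all 3 controls. The log2 difference was -0.40 against no leucine (SE 0.151, adjusted p = 0.283) and 0.31 against control (SE 0.151, adjusted p = 0.492), and neither passed in edgeR. Rps6, with 173, 164 and 196 FPKM, differed by 0.02 from the early weaned group, whose libraries read 236, 154 and 203. The SE of that Rps6 difference was 0.151. Myc was at 1.79 ± 0.888 FPKM with leucine, a log2 difference of -2.52 against no leucine (adjusted p = 0.0547).

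Early weaned livers with leucine were also compared with control livers, which the first d211 comparison shares. Of 89 members 80 were lower, with a median log2 difference of -0.29, against 0.01 for all genes; it was lower under each scaling tried, from -0.17 (TPM) to -0.29. In edgeR 0 passed, against 0.0133% of all genes, and 23 had an unadjusted p under 0.05, all lower, against 10.8% of all genes. Initiation and termination factors were lower in 24 of 24 and 0 fell. Of the markers of other cells, 8 of 8 stellate, 6 of 6 cholangiocyte, 9 of 10 Kupffer and 8 of 9 endothelial were higher and 0 passed. With leucine and in controls, stellate sums were 41.2 to 57.1 and 25 to 42.8 FPKM. Cholangiocyte sums were 10.1 to 15.5 and 8.26 to 13.5 FPKM, and Kupffer sums 251.1 to 371.8 and 130.3 to 340 FPKM. Endothelial sums were 84.7 to 104.8 and 41.2 to 99.3 FPKM. The groups overlapped in each of these lists, with no marker at 0. The erythroid sums, with Gata1 at 0 in both groups, did not overlap. They were 1780 to 3193 FPKM with leucine and 695 to 1777 FPKM in controls. The part of all these lists was not tested. DESeq2 called 2, Rpl4 and a row of Rpl21 (ENSRNOG00000000957). Rpl4, a large-subunit protein that lines the exit tunnel, read 361, 351 and 402 FPKM in controls and 293, 296 and 265 with leucine, without overlap. Its log2 difference was -0.44 (SE 0.108, adjusted p = 0.331 in edgeR). Rpl4 read 378, 333 and 363 FPKM in early weaned livers on plain water, which overlap the controls.

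**Figure D5:**
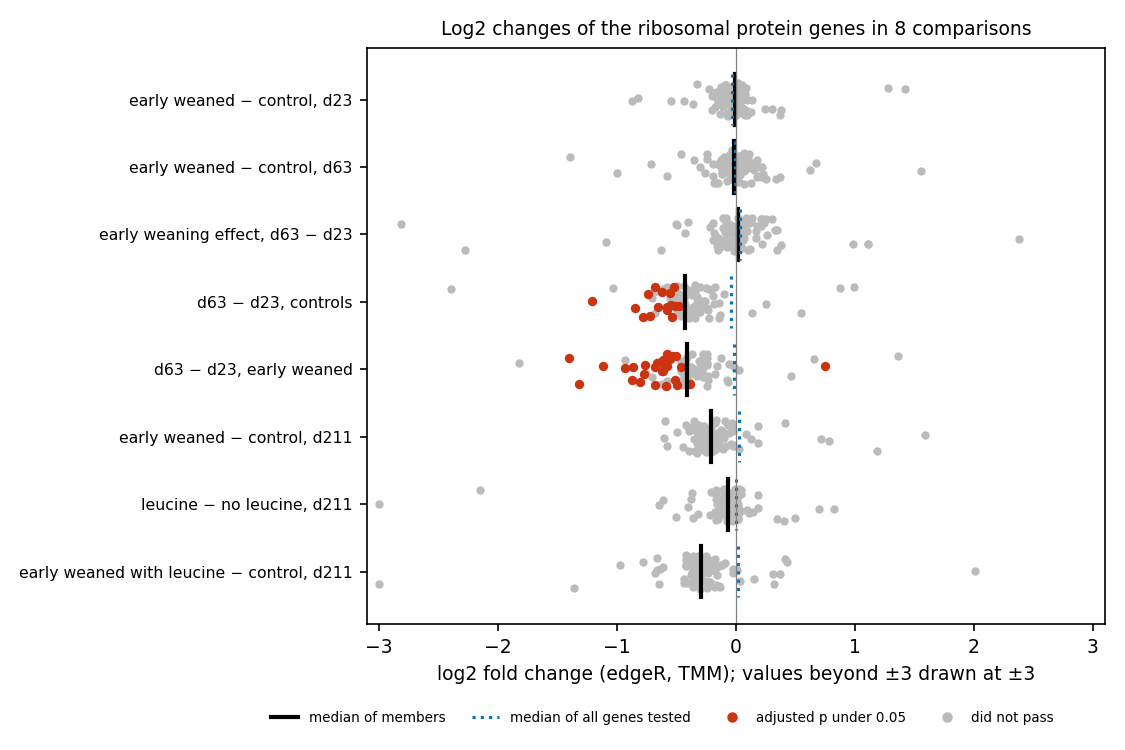
Log2 difference (x axis) of each described member in the 8 comparisons (rows); red points passed at adjusted p under 0.05, values beyond 3 in size are drawn at 3, black bars mark the median of the members and dotted blue bars that of all genes tested. Red points appear only between d23 and d63, where the medians are -0.43 and -0.41, and the medians at d211 are -0.21, -0.07 and -0.29 after TMM.

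Among the remaining paralog pairs, the levels within a library gave the following. Rpl7l1, a paralog of Rpl7 that works in assembly, stood by FPKM at 45.2% ± 15.6 of Rpl7 in d23 controls and 33.8% ± 3.37 in d63 controls (SD, n = 3). The libraries gave 55.6%, 52.8% and 27.3% at d23 and 34.1%, 30.3% and 37.0% at d63, overlapping ranges. The implied length was 5293 bp for Rpl7 and 762 bp for Rpl7l1, so this ratio depends on the gene models. By counts, d23 controls had 1492, 1412 and 786 for Rpl7l1 and 18659, 18587 and 19988 for Rpl7. Rpl3l was at most 0.237% of Rpl3 in any library. Rps4y2 was between 1.71% and 6.85% of the summed Rps4x rows.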

How the data were processed

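Liver RNA-seq of 21 samples was used as 2 deposited tables of 32623 rows, 12 Wistar and 9 Sprague Dawley samples. Per the file headers each gives a count and an FPKM value. The authors' FPKM values are normalized for length and depth. The deposited counts are estimated counts that were already whole, with low values in multiples of about 4; a floor of 3 fragments is 12 count units and covers counting error only. The library kit is a SMARTER mRNA kit, per the labels. Aligner and counter: not given in the sources used here. GRCm38 and mm10 are named by the submitters' processing notes, whereas the tables hold rat Ensembl identifiers.

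Each table was fitted alone with edgeR 4.0.16 in R 4.3.3 (TMM, filterByExpr at a count of 10, 15416 and 15019 genes, 1 mean per group, two-sided quasi-likelihood test, Benjamini-Hochberg over all genes). Fold changes are edgeR's, levels FPKM as mean ± SD. The script was tested on simulated counts. Alternatives used DESeq2 1.42.0 and limma 3.58.1 on log2(FPKM + 1). The members and lists were chosen with earlier results of these data known. Of 266 symbols in the gene lists 252 matched; mitochondrial ribosomal proteins were taken by symbol form. Named members are, per comparison, the 4 of smallest p in each direction, those passing (up to 10 a direction) a panel of 19 symbols, and the 3 most and 3 least abundant per table; other lists give up to 3 genes each. Any member or gene named outside this rule was chosen after its values were seen. Same-numbered replicates were not taken as pairs. All groups of a table share 1 spread. Sequences are RefSeq's (GRCr8); no genome was used. Some single-gene results are not reported here.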

Additional observations from a re-analysis of the deposited data

How the results depend on the processing

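The members' median kept its direction between d23 and d63 under every alternative run. The number of members passing did not. The counts below stand without the share of all genes under the same alternative and cannot be set against it. In controls 16 passed; 36 did with DESeq2, 0 with only the 2 groups compared, and 0 to 18 when a library was left out. In early weaned livers 27 passed; 42 did with total counts, 54 with limma on log2(FPKM + 1), 54 at + 0.1, 55 on TPM, 42 without a filter, and 4 to 31 when a library was left out. Where edgeR called 0, DESeq2 called 1 at d23, 1 in the interaction, 1 at d211, 1 for leucine against none and 2 for leucine against control. At d211, total counts, limma on log2(FPKM + 1), at + 0.1 and on TPM called 1 each, and leaving out a library gave 0 to 1. There the median of -0.214 became 0.014 (total counts), 0.006 (limma at + 1, at + 0.1 and without a filter) and 0.087 (TPM), and that of leucine against none went from -0.069 to -0.261 on TPM; in each, all genes shifted the same way, to medians of 0.239, 0.168, 0.205, 0.073, 0.253 and -0.172. The cause was not tested. The medians of early weaning at d23 and d63 and of the interaction, all near 0, took either sign over the alternatives.

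With the replicate number as a block, 14 members passed between ages in controls and 20 in early weaned livers. Deviations of same-numbered samples correlated at -0.19 to 0.245, never above 0.1 in all 3 pairs of a comparison. With 3 libraries a group such correlations cannot decide whether same-numbered samples are related, and the labels do not say. Counting only symbols with 1 row lowered the share of counts from 1.45% to 1.32% in d23 controls and from 1.35% to 1.22% with leucine. The pyrimidine tract within 5 bases of the start was found in 58.7% of member promoters, against 33.3% at the start. Counting every tested row of the rule, and edgeR's newer dispersion, were chosen after seeing the data and changed no count by over 1.5 times. Leaving out each library for the assembly, polymerase and initiation factor lists was also chosen after seeing the data. Total counts were lowest and highest in d211 controls 1 and 2, at 52054644 and 75118153; the spread between 3 libraries a group sets the precision.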
